A study of Mus musculus with 16 samples.

Results

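Mouse embryonic stem (ES) cells of 2 line types were compared: feeder-free cells (the E14 +/+ line and a Cdk4 +/- line) and feeder-grown cells (the ESVJ +/+ line and an Abca1 +/- line). Arrays were chosen by the labelled line alone, which gave 12 of the 16 arrays of the series, 6 per line type and 3 per line, measured on Affymetrix U74Av2 arrays. Per the labels, ESVJ cells and the Abca1 +/- line derived from them were kept on irradiated mouse embryonic fibroblasts, depleted of those feeders, and held on gelatin for about 2 days, with RNA taken by Trizol and RNeasy. E14 cells and the Cdk4 +/- line, for which E14 is named as the control, grew without feeders, with RNA taken by RNeasy alone. All 4 are cultured lines, each represented by 1 line, and 1 copy of the named gene is mutated in each +/- line. Line origin, culture and RNA isolation therefore change together and cannot be told apart in any difference below. The labels do not say whether the arrays of a line come from separate cultures, so p-values measure only the spread between these samples, which may be technical.

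ES cells keep the ability to form all tissues of the embryo while dividing, under transcription factors such as Pou5f1, Sox2 and Nanog. Leukaemia inhibitory factor (LIF) acting through STAT3 and BMP or Wnt signals help to hold mouse ES cells in that state, whereas FGF4 acting through MAP kinase prepares them to leave it. Feeder fibroblasts supply matrix and secreted factors, and lines kept without them attach directly to the coated dish.

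A level below is a MAS5 signal, a probe set intensity, after every array was brought to a trimmed mean of 500. A difference is feeder-free minus feeder-grown in log2(signal + 32), and the added 32 makes it too small where signals are low. "Passed" means an adjusted p under 0.05 in limma's moderated test over 7349 probe sets, and where a gene had several probe sets the brightest on average stands for it. Levels of different genes are not compared, since probe sets differ in brightness.

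The arrays were of like overall brightness, with a median signal between 153 and 170. Arrays of the same line correlated with r from 0.970 to 0.990 over all probe sets, feeder-free arrays of different genotype from 0.964 to 0.983, feeder-grown arrays of different genotype from 0.978 to 0.986, and arrays of different line type from 0.925 to 0.952. The BioB hybridisation control was high, at 1056 to 1337, in Abca1 +/- replicate 1, ESVJ replicate 3 and Cdk4 +/- replicate 2. These high arrays lie in both line types. In the other 9 arrays it was 377 to 469 in feeder-grown and 597 to 748 in feeder-free arrays, which do not overlap. CreX, another such control, was also lower in the feeder-grown arrays of these 9, at 7353 to 7939 against 8545 to 10123. Whether this split has a part in the results was not tested. The 3'/5' signal ratio of Gapdh, a sign of RNA quality, ran from 0.90 to 1.19 in feeder-free and from 0.80 to 0.98 in feeder-grown arrays. Its part in the results was not tested. Cdk4 signal was 3448, 3854 and 3731 in Cdk4 +/- cells and 5498 to 5827 in E14, so the labels and this transcript go together. Abca1 signal was 94.0 to 123 in Abca1 +/- cells and 102 to 178 in ESVJ, which overlap and so check nothing. The line types differed in Abca1 by 0.88 (adjusted p = 8.71e-05), but a further probe set below the filter ran the other way in +/+ cells, at 16.3 to 49.4 in E14 and 91.6 to 126 in ESVJ.

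The cells were ES cells in all 4 lines by their defining markers, all 9 of which were on the array. Pou5f1 lay between 6475 and 11649 and Sox2 between 4716 and 7723 over the 12 arrays, and the summed level of the 9 markers was 32501 to 44308 in feeder-free and 52823 to 62437 in feeder-grown arrays. Markers of feeder fibroblasts summed to 2266 to 3216 in feeder-free and 1842 to 2219 in feeder-grown arrays over the 9 of 10 on the array. Of those 9, only Col1a1 and Col1a2 passed the filter on low signal. Col1a1 was higher in feeder-free cells by 1.84, and Col1a2 was lower by -0.42. Thy1, a surface protein of fibroblasts, stood at 22.6 to 92.1 in feeder-free and 78.6 to 134 in feeder-grown arrays. Col3a1, a fibrillar collagen, was at 92.0 to 222 in feeder-free and 22.8 to 71.8 in feeder-grown arrays, Postn, the matrix protein periostin, at 56.6 to 71.2 and 21.9 to 56.5, and the growth factor receptor gene Pdgfrb at 32.9 to 50.5 and 12.2 to 45.5. These markers thus lay in both directions, and their part in the results was not tested. In bulk RNA of this kind, fewer cells of a type and less RNA per cell cannot be told apart.

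The line types differed in 56.1% of the probe sets tested, the 7349 of 12488 that passed the filter on low signal. Of these, 1817 (24.7%) were higher and 2306 (31.4%) were lower in feeder-free cells, with a median difference over all probe sets of -0.10. Differences of 2-fold or more were tilted the other way, with 552 probe sets (7.51%) higher and 280 (3.81%) lower, and those of 8-fold or more counted 29 higher and 8 lower. The 6 feeder-free arrays did not overlap the 6 feeder-grown arrays for 2157 probe sets (29.4%), 1103 of them higher and 1054 lower. Counted by gene, 1453 of 5590 (26.0%) were higher and 1728 (30.9%) were lower, 456 (8.16%) and 187 (3.35%) by at least 2-fold, with a median of -0.08. These shares are the background for the gene groups below. A gene passed the filter with a mean signal of at least 100 over the 12 arrays, so a gene that averages under 100 in 1 line type passed only if the other was high enough and had to differ. Besides those named with their group, such genes include Hprt, Plat, Gata3, Jak2, Fgf15, Inhbb and Cryab. List members Tgfb1, Dlx3, Ptpn6, Fosl1, Isg15, Grb10, Sc5d, Mbd2 and Mmp9 likewise averaged under 100 in the feeder-grown arrays. Ppat, Pax6, Zic2, Ifitm1 and Lama3 did so in the feeder-free arrays.

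The line difference was measured once in +/+ cells (E14 minus ESVJ) and once in +/- cells (Cdk4 +/- minus Abca1 +/-), on separate arrays. In +/+ cells 3130 probe sets (42.6%) passed and in +/- cells 2977 (40.5%). Both passed in the same direction for 2037 probe sets (27.7%), which is 65.1% of the +/+ calls and 68.4% of the +/- calls, and in opposite directions for 19. Of the 1074 that passed only in +/+ cells, 899 had the same sign in +/- cells. Across the 7349 probe sets, which are not independent and share 1 estimate of the spread, r between the 2 differences was 0.853 (Pearson) and rho 0.755 (Spearman).

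**Figure D1:**
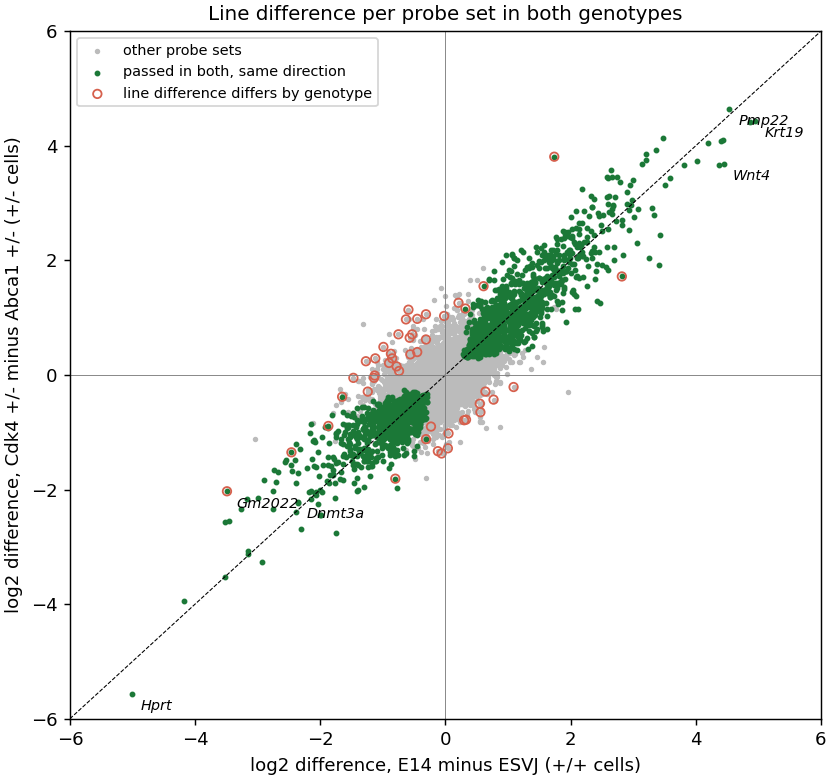
Line difference of each of 7349 probe sets in +/+ cells (horizontal axis, E14 minus ESVJ, log2) against +/- cells (vertical axis, Cdk4 +/- minus Abca1 +/-, log2), with green for the 2037 that passed in both in the same direction and open circles for the 46 whose line difference itself differed by genotype. Most green points lie near the dashed line of equal difference, from Hprt at -5.01 and -5.56 to Krt19 at 4.95 and 4.43.

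Krt19 and Krt18, keratins of simple epithelia, had the largest rises in feeder-free cells among the genes named here. Krt18 and Krt8 encode the partner filament proteins of simple epithelial cells, and Krt19 and Krt7 further members found in ducts and in the outer layer of the early embryo. Krt18 signal was 8236, 7701 and 9903 in E14 and 9247, 9340 and 9055 in Cdk4 +/- cells, against 231, 297 and 264 in ESVJ and 399, 413 and 384 in Abca1 +/- cells. Krt19 signal was 2462, 2764 and 2462 in E14 and 2116, 2491 and 2137 in Cdk4 +/- cells, against 71.6, 25.0 and 66.8 in ESVJ and 63.0, 75.8 and 82.1 in Abca1 +/- cells. For both genes every feeder-free array was far above every feeder-grown one. Within the feeder-grown type the Krt18 signals of ESVJ, 231 to 297, lay below those of Abca1 +/- cells, 384 to 413. The differences were 4.65 (SE 0.09, adjusted p = 7.83e-15) for Krt18 and 4.69 (SE 0.14, adjusted p = 9.28e-13) for Krt19.

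Krt8 signal was 10061, 9291 and 10245 in E14 and 8229, 9107 and 8468 in Cdk4 +/- cells, against 451, 434 and 448 in ESVJ and 571, 694 and 672 in Abca1 +/- cells. Krt7 signal was 808 to 1302 in feeder-free and 13.8 to 55.5 in feeder-grown arrays. Neither gene overlapped between the line types, with differences of 4.02 for Krt8 and 4.12 for Krt7. All 5 keratins tested were higher, Krt20 least (1.38, SE 0.16, adjusted p = 3.94e-06).

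Junction proteins were mostly higher as well. Of 26 epithelial genes tested, the 5 keratins included, 20 were higher, 3 were lower and 3 did not pass, with a median of 1.33 against -0.08 for all genes. Of the 15 junction genes among them 12 were higher and 2 were lower, with a median of 1.29. Krt19, Krt7, Krt20 and the junction gene Dsc2 passed the filter through the feeder-free arrays alone. Cldn4, a tight junction claudin, had signals of 5552, 5468 and 5353 in E14 and 5506, 4179 and 5871 in Cdk4 +/- cells against 255 to 434 in the feeder-grown arrays, a difference of 3.88 (SE 0.11). Perp, a desmosome protein also counted among p53 targets, was at 2.73. Other desmosome genes were Dsp, the linker to keratin filaments, at 2.72 and the cadherin Dsc2 at 2.55. The 3 lower genes were Cdh1, the E-cadherin of ES cells and epithelia (-0.51, adjusted p = 0.00381), the connexin gene Gjb5 (-0.37) and the galectin gene Lgals3 (-0.85). Epcam, the epithelial adhesion molecule that ES cells also carry, was at 0.12 (adjusted p = 0.379) with overlapping arrays.

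**Figure D2:**
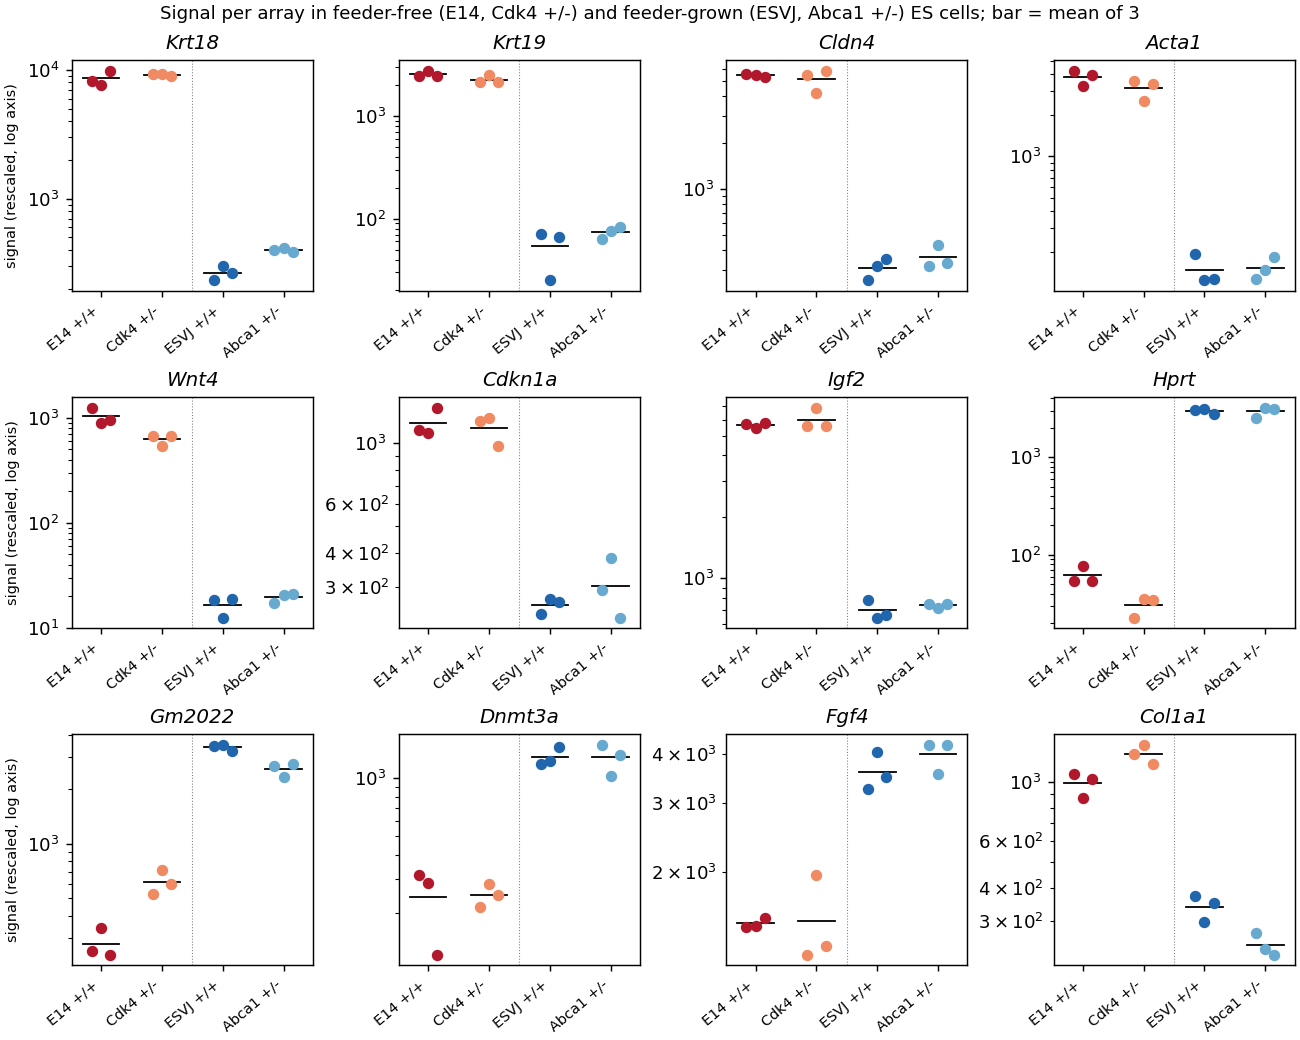
Signal of 12 genes (vertical axes, rescaled signal on a log scale) in each of the 12 arrays, grouped by line, with a bar at the mean of the 3 arrays and a dotted line between the feeder-free (red, orange) and feeder-grown (dark and light blue) lines. Krt18 stands at 7701 to 9903 in the feeder-free arrays and 231 to 413 in the feeder-grown ones, and the order is turned for Hprt, at 22.8 to 76.6 and 2521 to 3224.

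Genes of the actin cytoskeleton and of smooth muscle were higher in feeder-free cells as a group. Of 26 tested, 19 were higher, none was lower and 7 did not pass, 15 were at least 2-fold higher, and the median was 1.45. For 18 of the 26 all feeder-free arrays were above all feeder-grown ones, as for 16.3% of all genes. Cnn1 and Cotl1 passed the filter through the feeder-free arrays alone and Des through the feeder-grown ones, so these counts are set in part by the filter. Acta1, skeletal muscle actin, had signals of 4229, 3261 and 3938 in E14 and 3562, 2543 and 3359 in Cdk4 +/- cells, against 194, 124 and 127 in ESVJ and 128, 148 and 185 in Abca1 +/- cells. All 6 feeder-free arrays were higher, a difference of 4.26 (SE 0.13, adjusted p = 1.13e-12). Csrp1, a LIM protein of actin bundles, was at 3.41 and Acta2, smooth muscle actin, at 2.84.

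The actin-binding proteins went with them. Tagln, the smooth muscle protein transgelin, was at 6847 to 9584 in feeder-free and 987 to 1373 in feeder-grown arrays (2.81), and the tropomyosin gene Tpm1 at 6755 to 8554 and 1114 to 1437 (2.57, SE 0.08). Anxa1, an annexin of the membrane and cytoskeleton, was at 2.83, and Gsn, the actin-severing protein gelsolin, which was not in the list, at 1882 to 2379 against 124 to 177 (3.52). The cytoplasmic actin gene Actg1 did not pass (-0.10, adjusted p = 0.474), nor did Actb (0.84, SE 0.42, adjusted p = 0.103; -0.45 by its other probe set), whose signal ran from 173 to 2223 over the 12 arrays. Twf2, which encodes the actin monomer-binding protein twinfilin, also outside the list, was lower: 807 to 1983 in feeder-free and 4927 to 6627 in feeder-grown arrays (-2.22).

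Many actin and smooth muscle genes carry a CArG box near the start site, the 10-base element that serum response factor binds, and the RefSeq promoters of this group were searched for it. The element reads the same on both strands, and the search covered the 250 bases before the start of each gene in the C57BL/6J reference (GRCm38.p6), which is not the strain of these cells. The promoter was held for 22 of the 26 genes, and 5 of the 22 contained the element, against 68 of 4531 tested genes and 439 of 27025 genes in all (1.62%). Of the 13 genes with a promoter that were at least 2-fold higher, 3 contained it. The sequences of those 3 and of Actg1, which contained the element and did not pass, are printed to show the element in genes that differed and in one that did not pass; capitals mark it.
Acta1 (chr8:123894776-123895025, minus strand): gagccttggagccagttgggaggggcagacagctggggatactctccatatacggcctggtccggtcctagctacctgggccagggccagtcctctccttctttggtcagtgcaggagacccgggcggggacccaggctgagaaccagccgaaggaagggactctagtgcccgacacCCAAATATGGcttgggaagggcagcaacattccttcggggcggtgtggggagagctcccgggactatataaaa
Cnn2 (chr10:79988350-79988599, plus strand): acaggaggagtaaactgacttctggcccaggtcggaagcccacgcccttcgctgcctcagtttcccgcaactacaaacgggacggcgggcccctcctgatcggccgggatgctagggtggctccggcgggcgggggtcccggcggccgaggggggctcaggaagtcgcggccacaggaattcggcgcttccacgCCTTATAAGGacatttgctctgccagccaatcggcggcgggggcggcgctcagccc
Vcl (chr14:20929148-20929397, plus strand): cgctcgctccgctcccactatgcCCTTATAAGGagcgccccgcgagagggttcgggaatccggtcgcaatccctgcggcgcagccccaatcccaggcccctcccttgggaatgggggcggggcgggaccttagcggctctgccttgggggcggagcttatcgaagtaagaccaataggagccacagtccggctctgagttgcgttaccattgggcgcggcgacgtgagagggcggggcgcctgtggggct
Actg1 (chr11:120348496-120348745, minus strand): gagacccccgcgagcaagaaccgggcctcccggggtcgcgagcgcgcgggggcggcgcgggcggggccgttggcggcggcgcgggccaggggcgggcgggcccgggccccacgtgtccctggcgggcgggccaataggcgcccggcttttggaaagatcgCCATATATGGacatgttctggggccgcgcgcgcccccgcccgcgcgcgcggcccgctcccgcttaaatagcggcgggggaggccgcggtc

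The element lay 73 to 64 bases before the start of Acta1, 56 to 47 before that of Cnn2, 227 to 218 before that of Vcl and 90 to 81 before that of Actg1. Cnn2, a calponin, was at 3048 to 4729 in feeder-free and 591 to 1143 in feeder-grown arrays (2.03), and Vcl, the focal adhesion protein vinculin, at 3968 to 5112 and 1525 to 1788 (1.41). Actg1 was at 13077 to 19297 and 13296 to 18463, which overlap. The fifth gene with the element, the myosin light chain gene Myl9, was at 0.34 (adjusted p = 0.0338). A match shows only that these letters are present.

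Matrix and integrin genes were mostly higher in feeder-free cells, with laminin alpha chains among the exceptions. Of 30 tested, 20 were higher, 5 were lower and 5 did not pass, with a median of 0.84. Plat, tissue plasminogen activator, was at 659 to 913 in feeder-free and 35.1 to 116 in feeder-grown arrays (3.02, SE 0.13). The integrin alpha 3 chain gene Itga3 was at 2.13, the metalloprotease inhibitor gene Timp3 at 1.73, the proteoglycan gene Agrn at 1.46 and the basement membrane collagen gene Col4a2 at 1.42. Lama1, the laminin alpha 1 chain of early basement membranes, went the other way, at 185 to 216 in feeder-free and 633 to 783 in feeder-grown arrays (-1.77, SE 0.09). Of 18 tested genes of the fibroblast list, 8 were higher, 4 were lower and 6 did not pass, with a median of 0.09. Its highest members were Ccn1, a matricellular protein gene (2.41), S100a6 (1.96) and Col1a1, and Fbln2, a fibulin, was lowest at -0.73.

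Of 14 Wnt ligands on the array 5 passed the filter, and 3 of these were higher. Those 3, Wnt4, Wnt3 and Wnt6, did so through the feeder-free arrays alone, so their count is set in part by the filter. Wnt4, which acts in kidney and gonad formation, had signals of 1250, 890 and 963 in E14 and 677, 540 and 676 in Cdk4 +/- cells, against 18.4, 12.5 and 18.7 in ESVJ and 17.2, 20.4 and 20.9 in Abca1 +/- cells. The feeder-grown signals are under the pseudocount of 32, and the difference was 4.06 (SE 0.13, adjusted p = 1.77e-12). Wnt3, the ligand of primitive streak formation, was at 399 to 537 in feeder-free and 43.8 to 121 in feeder-grown arrays (2.13). Wls carries Wnt proteins to the cell surface and was not in the list. Its signal was 939 to 2502 in feeder-free and 66.8 to 85.4 in feeder-grown arrays (3.81, SE 0.16). It too passed the filter through the feeder-free arrays alone.

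The receptors, transducers and targets of Wnt signalling were mixed. Of 9 receptors 3 were higher and 2 were lower, of 10 transducers 5 and 2, of 10 inhibitors 3 and 3, and of 6 targets 2 and 0. Over the whole list 16 of 40 were higher, 7 were lower and 17 did not pass, with a median of 0.17. Ror2, Cdx1 and Dkk1 passed the filter through the feeder-free arrays alone, and Fzd7, Fzd9 and Sfrp1 through the feeder-grown ones. The receptor Fzd2 was at 1.96, while Lef1, a nuclear partner of beta-catenin, was at -1.04. Axin2, a direct target of beta-catenin, was at -0.24 (adjusted p = 0.176) and Ctnnb1, beta-catenin itself, at -0.16 (adjusted p = 0.164).

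TGF-beta and BMP genes were more often higher. Of 25 tested, 15 were higher, 4 were lower and 6 did not pass, with a median of 0.40; 9 of 13 targets and inhibitors were higher and none was lower. The ligand gene Tgfb2, which passed the filter through the feeder-free arrays alone, was at 259 to 547 in feeder-free and 13.3 to 35.6 in feeder-grown arrays (2.80), and Bmp4, a ligand that supports ES cells with LIF, at 1342 to 1731 and 573 to 673 (1.24). Id2, a BMP target that blocks differentiation factors, was at 2986 to 4847 and 730 to 1029 (1.99, SE 0.09). The 4 lower genes were ligands or their co-receptor: Inhbb and Inhba, the activin chains, at -2.55 and -0.97, Gdf3 at -1.02, and the nodal co-receptor gene Tdgf1 at -1.52.

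In the FGF list the ligands Fgf4, Fgf15 and Fgf17 were lower and the receptor Fgfr1 was higher. Of 6 ligands and receptors tested, 2 were higher, 3 were lower and 1 did not pass. Fgf15 passed the filter through the feeder-grown arrays alone. Fgf4, the ligand by which ES cells drive their own MAP kinase activity, had signals of 1445, 1452 and 1525 in E14 and 1226, 1965 and 1293 in Cdk4 +/- cells, against 3249 to 4223 in the feeder-grown arrays (-1.35, SE 0.11, adjusted p = 9.40e-08). Fgf15 and Fgf17 were lower by -2.25 and -1.70, while Fgfr1 was at 910 to 1544 in feeder-free and 149 to 362 in feeder-grown arrays (2.10). Of 9 targets and inhibitors 5 were higher and 3 were lower, with Phlda1 at 2.95 and the MAP kinase phosphatase gene Dusp1 at 1.26. Over the list 7 of 15 were higher, 6 were lower and 2 did not pass.

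The LIF list was mixed. Of 22 genes 6 were higher, 8 were lower and 8 did not pass, with a median of -0.10. Over all genes 26.0% were higher and 30.9% were lower. Of the 11 targets or inhibitors in the list 4 were higher, 3 were lower and 4 did not pass. Lifr, the LIF receptor subunit, was at 193 to 334 in feeder-free and 334 to 560 in feeder-grown arrays (-0.80, adjusted p = 5.22e-05), which meet at the edge. Socs3, the feedback inhibitor that STAT3 induces, was at 480 to 615 and 1013 to 1176 (-0.98, SE 0.08), and Socs2 at -1.14. Junb, an immediate early target, was higher, at 667 to 1177 and 311 to 534 (0.92, and 1.64 by its other probe set). The kinase gene Jak2 was at 233 to 373 against 62.0 to 102 (1.56), and Stat3 itself at -0.28 (adjusted p = 0.0186).

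Pluripotency genes were mostly lower in feeder-free cells, with a median of -0.38 over 15 core factors and -0.54 over 18 other markers. Of 33 genes tested 22 were lower, 6 were higher and 5 did not pass, with a median of -0.49, -0.60 in +/+ and -0.40 in +/- cells, and 10 were at least 2-fold lower. Pou5f1 was at 6475 to 7821 in feeder-free and 8093 to 11649 in feeder-grown arrays (-0.49, adjusted p = 6.86e-04). Sox2 was at -0.38 and Nanog, whose arrays overlap, at -0.31 (-0.67 in +/+ and 0.06 in +/- cells). Tdgf1 was at -1.52 and Fgf4 at -1.35. Esrrb, an orphan receptor of the core network, was at 39.1 to 71.6 against 94.7 to 346 (-1.41) and passed the filter through the feeder-grown arrays alone. Lower too were Fbxo15, a widely used ES reporter locus, at 1552 to 2517 against 4134 to 5941 (-1.33), and Nr0b1, an orphan nuclear receptor gene, at 1814 to 2646 against 4648 to 5738 (-1.23). The highest member was Lefty1, the nodal antagonist, at 1.42.

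Genes of the 2-cell embryo were lower in feeder-free cells where they passed the filter, to unequal degrees. Of 8 two-cell genes on the array 6 passed the filter, and those 6 were lower, with a median of -2.15. Arg2 and Usp17la averaged under 100 in the feeder-free arrays and passed through the feeder-grown ones, and 2 more genes were not tested. Gm2022 signal was 253, 339 and 243 in E14 and 526, 717 and 599 in Cdk4 +/- cells, against 3483, 3529 and 3275 in ESVJ and 2673, 2352 and 2744 in Abca1 +/- cells. The groups fall in the order E14, Cdk4 +/-, Abca1 +/-, ESVJ with no overlap between any of them, and the difference was -2.76 (SE 0.10, adjusted p = 1.11e-11). Tcstv3 was at 113 to 289 in feeder-free and 1021 to 1497 in feeder-grown arrays (-2.67), Usp17la at -2.37 and Tcstv1 at -1.94. Pramel7 was lowered least, at 47.1 to 153 and 128 to 173, which overlap (-0.50, adjusted p = 0.0138). In +/- cells Pramel7 did not pass (-0.11, adjusted p = 0.728). Gm2022, Tcstv1 and Tcstv3 belong to families of near-identical copies, so their probe sets can share signal. Such genes are known to be active in a small, changing share of ES cells.

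Of 15 germ cell genes on the array 7 were tested, Stra8 through its feeder-grown arrays alone, and 8 fell below the filter. Of the 7, 5 were lower, none was higher and 2 did not pass, with a median of -0.87. Stra8, the retinoic acid target of entry into meiosis, was at 11.4 to 40.8 in feeder-free and 117 to 315 in feeder-grown arrays (-2.01), Tex19.1, a transposon silencing gene, at 503 to 915 and 1918 to 3179 (-1.77), and the RNA-binding protein gene Dazl at -1.40.

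**Figure D3:**
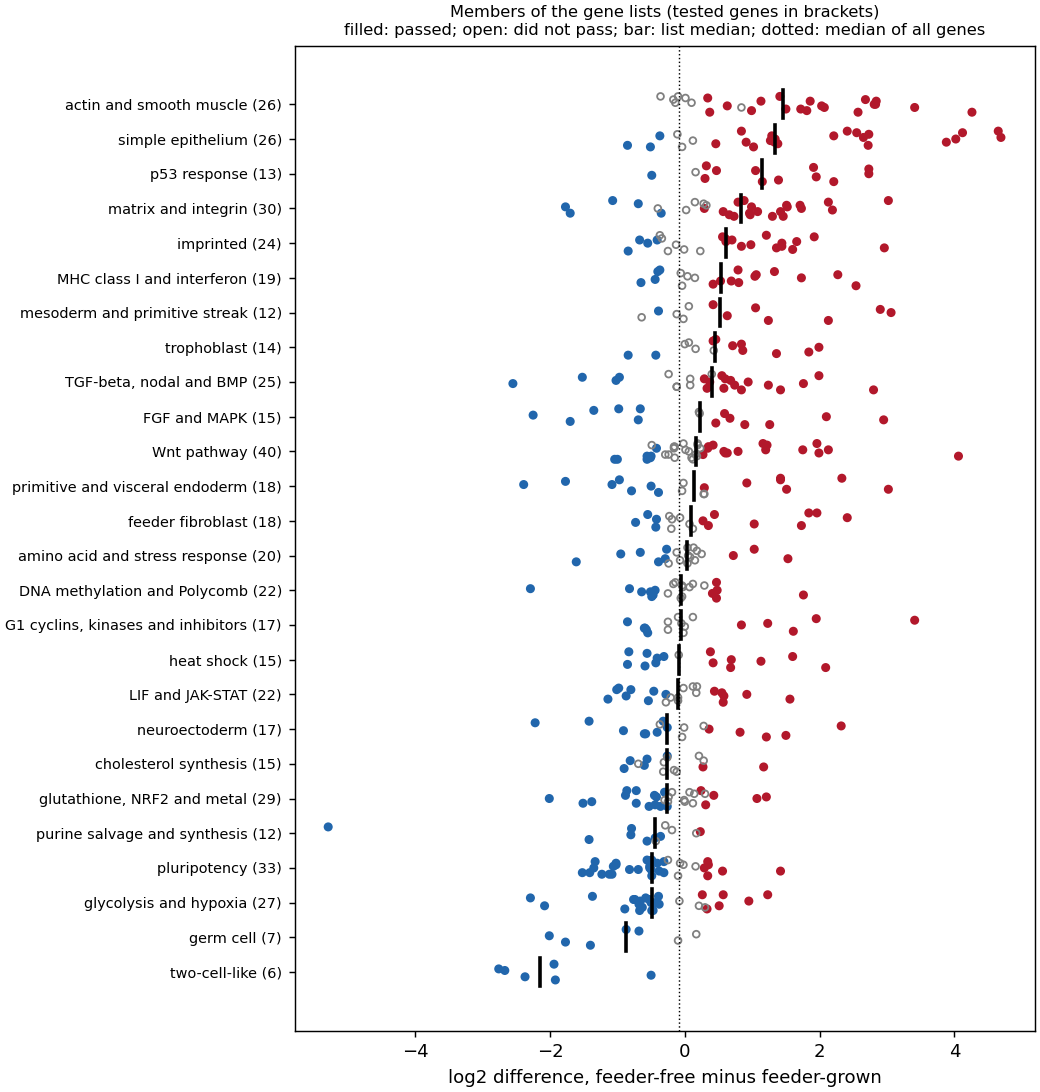
Difference of each tested member of 26 gene lists (horizontal axis, log2, feeder-free minus feeder-grown), with filled points for members that passed (red higher, blue lower), open points for those that did not, a bar at the list median and a dotted line at the median of all genes, -0.08. The list medians run from -2.15 for two-cell genes to 1.45 for actin and smooth muscle genes.

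Genes of the first lineages did not move as blocks. Of 14 trophoblast genes 8 were higher and 2 were lower, with a median of 0.45. Gata3, a factor of the trophectoderm, had a median of 279 in feeder-free and 57.9 in feeder-grown arrays with no overlap (1.84), and Tfap2c at 1169 to 1282 and 500 to 916 (0.86). Over all 8 defining trophoblast markers the summed level was 2203 to 2535 against 1251 to 1700. Of these, Elf5 lay at 2.53 to 22.2 over the 12 arrays, Cdx2 at 12.2 to 72.1 in feeder-free and 4.33 to 19.4 in feeder-grown arrays, and Ascl2 was lower (-0.84).

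Of 18 endoderm genes 7 were higher, 7 were lower and 4 did not pass. All 4 factors tested were lower: Gata4 (-0.97), Gata6 (-0.50), Sox17 (-1.08) and Sox7 (-0.79), whereas Serpinh1, a collagen chaperone of the endoplasmic reticulum (2.33), and Sparc, a secreted matrix protein gene (1.42), were higher. Gata6 and Cubn passed the filter through the feeder-grown arrays alone. Cubn, an endocytic receptor of visceral endoderm, was at 44.5 to 67.2 in feeder-free and 392 to 472 in feeder-grown arrays (-2.39, SE 0.12). The defining endoderm markers summed to 933 to 1586 in feeder-free and 1576 to 2411 in feeder-grown arrays over the 9 of 10 on the array.

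Of 12 mesoderm and primitive streak genes 7 were higher, 1 was lower and 4 did not pass, with a median of 0.53 that ran from 0.39 with a pseudocount of 100 to 2.13 with a filter of 200, which left 5 genes. Msx2, Cdh2, Wnt3 and Dkk1 passed the filter through the feeder-free arrays alone, and Hoxb1 and Lhx1 through the feeder-grown ones. Msx2, a homeobox gene that BMP induces, was at 272 to 544 in feeder-free arrays and at most 37.9 in feeder-grown ones (3.06), and Cdh2, N-cadherin, at 535 to 1069 and 46.1 to 95.6 (2.90). Of 17 neuroectoderm genes 5 were higher and 8 were lower. Sox11, a factor of neural progenitors, was at 3118 to 4919 in feeder-free and 628 to 913 in feeder-grown arrays (2.32), and the related factor Sox4 at 0.82, while Mapt, which encodes tau, was at -2.22 and the homeobox gene Gbx2 at -1.42. The neuroectoderm median of -0.26 changed sign under some settings, to at most 0.12.

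Among inhibitors of the G1 phase, Cdkn2b, Cdkn1a, Cdkn1c and the Cdkn2a locus were higher in the feeder-free lines. Cdkn2d was lower and Cdkn2c did not pass. These proteins block CDK4 and related kinases, and ES cells are known for a short G1 phase. Cdkn2b, p15, had signals of 638, 625 and 792 in E14 and 977, 624 and 862 in Cdk4 +/- cells, against 65.0, 53.8 and 31.9 in ESVJ and 25.2, 28.4 and 48.6 in Abca1 +/- cells. All 6 feeder-free arrays were higher, a difference of 3.41 (SE 0.15, adjusted p = 1.18e-10), 3.14 in +/+ and 3.68 in +/- cells. Cdkn1a, p21, was at 976 to 1346 against 232 to 382 (1.95), and the Cdkn2a locus at 395 to 580 against 59.4 to 184 (1.61). Cdkn1c, which also stands in the trophoblast list, was at 1541 to 2133 against 837 to 1322 (0.84, adjusted p = 6.52e-06). Cdkn2d, p19, was at 169 to 401 against 426 to 512 (-0.55, adjusted p = 0.00466), and Cdkn2c, p18, at 166 to 284 against 185 to 246 (-0.00, adjusted p = 0.982). Of the 17 genes of the list 5 were higher, 5 were lower and 7 did not pass, where 26.0% of all genes were higher and 30.9% were lower. The lower genes include Cdk4 (-0.57, adjusted p = 9.22e-06), which is the gene mutated in the Cdk4 +/- line. It was at -0.23 in +/+ cells (adjusted p = 0.0813) and -0.90 in +/- cells, and its other probe set at -0.87 and -1.55. Rb1, the retinoblastoma protein gene, was at 1.23 and the cyclin gene Ccnd3 at 1549 to 1927 against 2914 to 3492 (-0.85). Ccnd1 was at -0.02 (adjusted p = 0.927, and -0.30 by its other probe set). Cdkn2b and Rb1 averaged under 100 in the feeder-grown arrays and passed the filter through the feeder-free ones.

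Targets of p53 were higher nearly throughout the list. Of 13 tested 11 were higher, 1 was lower and 1 did not pass, 8 by at least 2-fold, with a median of 1.15. Plk2, a stress-induced kinase gene, was at 4415 to 6219 in feeder-free and 712 to 906 in feeder-grown arrays (2.73), Mdm2, the ligase that limits p53, at 2984 to 6137 and 670 to 1516 (1.91), and Btg2 at 1.15. The cell cycle inhibitor gene Sfn was at 2.21. Perp and Sfn also stand in the epithelial list and Cdkn1a in the G1 list, so these counts are not separate from those above.

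Imprinted genes that are expressed from the paternal copy were higher, and those of the maternal copy were mixed. Of 11 paternally expressed genes 8 were higher, none was lower and 3 did not pass, with a median of 1.36; of 13 maternally expressed genes 6 were higher and 4 were lower, with a median of -0.01. Igf2, the fetal growth factor, had signals of 5732, 5449 and 5774 in E14 and 5584, 6863 and 5551 in Cdk4 +/- cells, against 786, 643 and 665 in ESVJ and 753, 720 and 749 in Abca1 +/- cells. The lines within a type lay together, and the difference was 2.96 (SE 0.08, adjusted p = 6.73e-13). Peg3 was at 1.92 (2.73 and 0.11 by its other probe sets), Sgce at 1.60 and Ndn at 1.44. The maternally expressed gene Osbpl5 was at 469 to 713 in feeder-free and 97.0 to 250 in feeder-grown arrays (1.66).

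Among DNA methylation and Polycomb genes, Dnmt3a stood apart from the rest. Dnmt3a, a methyltransferase that sets new methylation marks, had signals of 314, 285 and 121 in E14 and 215, 282 and 248 in Cdk4 +/- cells, against 1191, 1230 and 1451 in ESVJ and 1497, 1032 and 1325 in Abca1 +/- cells. E14 replicate 3 was the lowest array, and the difference was -2.29 (SE 0.17, adjusted p = 3.38e-08). The maintenance methyltransferase gene Dnmt1 was at -0.14 (adjusted p = 0.231). Of 22 genes 5 were higher, 7 were lower and 10 did not pass, where 26.0% of all genes were higher and 30.9% were lower. The Polycomb genes Phc2, Phc1 and Jarid2 were at 1.76, -0.82 and -0.64.

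Hprt had the largest difference of any gene tested. Hprt salvages hypoxanthine and guanine for purine synthesis and is used to select for or against ES cells. Its signal was 54.5, 76.6 and 54.6 in E14 and 22.8, 35.5 and 34.7 in Cdk4 +/- cells, against 3044, 3116 and 2789 in ESVJ and 2521, 3224 and 3098 in Abca1 +/- cells. Both feeder-free lines were near the pseudocount, and the difference was -5.29 (SE 0.11, adjusted p = 9.87e-15). E14TG2a, a derivative of E14 in wide use, is known to lack a working Hprt gene; the labels give the name E14 only. Of 12 purine genes 7 were lower, 1 was higher and 4 did not pass, with a median of -0.44, and the nearest to Hprt was Pnp, which releases the bases that Hprt salvages, at 2169 to 3515 against 6308 to 8249 (-1.42).

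Glycolysis genes were lower in feeder-free cells. Of 17 tested 13 were lower, 2 were higher and 2 did not pass, with a median of -0.49. Pfkp, a phosphofructokinase, was at 168 to 344 in feeder-free and 1127 to 1280 in feeder-grown arrays (-2.29, and -2.06 by its other probe set), and Tpi1 at -0.66. Of the hypoxia genes of the same list 4 of 10 were higher and 5 were lower. Bnip3, a mitochondrial protein gene that hypoxia induces, was at 92.9 to 198 against 598 to 710 (-2.08), and Pdk1, which holds pyruvate back from mitochondria, at -1.37. The glucose transporter gene Slc2a3 was higher by 1.23 with 1 probe set and at -0.59 with the other, so its direction depends on the probe set.

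Glutathione and NRF2 genes were more often lower, with 14 of 29 lower, 5 higher and 10 that did not pass (median -0.26). The glutathione transferase gene Gstp1 was at 1495 to 2007 in feeder-free and 4833 to 5285 in feeder-grown arrays (-1.51, SE 0.08), Cbr3 at -1.38, and the haem oxygenase gene Hmox1 at 368 to 1711 against 2743 to 3271 (-2.01). Gsto1 was higher by 1.21 and Gpx3 by 1.07. Of 15 cholesterol synthesis genes 2 were higher, 5 were lower and 8 did not pass, where 26.0% of all genes were higher and 30.9% were lower.

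Antigen presentation genes were higher. Of 10 tested 8 were higher and 1 was lower, with a median of 0.80, while the interferon genes of the list had 3 of 9 higher and 3 lower. B2m, the light chain of MHC class I, was at 887 to 1988 in feeder-free and 112 to 302 in feeder-grown arrays (2.54, SE 0.16), the peptide transporter gene Tap1 at 390 to 486 and 131 to 181 (1.33), and Tapbp at 1.73 (0.84 and -0.28 by its other probe sets). The class I heavy chain gene H2-K1 was at 0.79 (0.56 and -0.19 by its other probe sets), and heavy chain probe sets can share signal between alleles and copies. Gbp2, an interferon-induced GTPase gene, was at 2.27.

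Heat shock genes were split. Of 15 tested 7 were higher and 7 were lower, where 26.0% of all genes were higher and 30.9% were lower. Hspa4 counts as higher by its brightest probe set (0.69), while its other probe sets included -1.13, -1.09 and -0.70, so its direction depends on the probe set. The small heat shock protein gene Hspb8 was at 1268 to 2187 in feeder-free and 296 to 416 in feeder-grown arrays (2.09), Cryab at 1.60 and Hspb2 at 1.13, whereas Hsph1 was at -0.83 and Hspa8 at -0.59. Of 20 amino acid and stress response genes 3 were higher, 6 were lower and 11 did not pass, against the same shares of all genes. Atf3, a stress-induced factor, was at 1.53 and Xbp1, a factor of the unfolded protein response, at 461 to 684 against 1586 to 2032 (-1.61, SE 0.09).

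**Figure D4:**
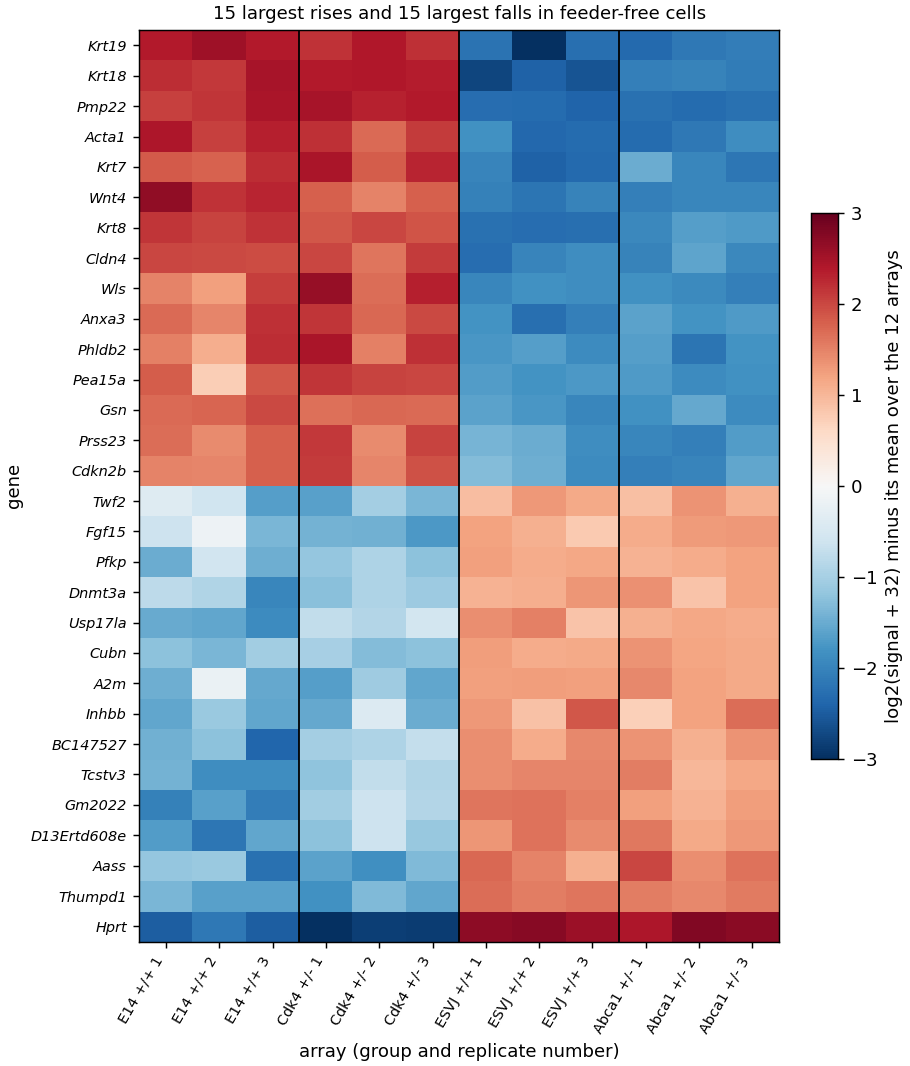
Log2(signal + 32) of each gene minus its mean over the 12 arrays (colour, red above and blue below) for the 15 genes highest and the 15 lowest in feeder-free relative to feeder-grown cells, one column per array. These genes were picked for not overlapping, so the split between the first 6 and last 6 columns is given by the choice, and the shading within each set of 6 shows the spread between arrays.

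Several of the genes with the largest differences belong to no list. Pmp22, a tetraspan membrane protein best known from myelin, had signals of 2235, 2375 and 2928 in E14 and 2983, 2654 and 2805 in Cdk4 +/- cells, against 70.5 to 84.0 in the feeder-grown arrays, a difference of 4.59 (SE 0.09, adjusted p = 9.87e-15). The annexin gene Anxa3 was at 3.74, the cell cortex gene Phldb2 at 3.65, the signalling adaptor gene Pea15a at 3.53 and the serine protease gene Prss23 at 3.48. Thumpd1, an adaptor for transfer RNA acetylation, was at 182 to 269 in feeder-free and 2023 to 2356 in feeder-grown arrays, the largest fall after Hprt among probe sets of 1 gene (-3.11, SE 0.10). Aass, the first enzyme of lysine breakdown, was at 126 to 315 and 1526 to 2958 (-3.10), and the protease inhibitor gene A2m at 4.43 to 68.1 and 221 to 283 (-2.50). D13Ertd608e was at -2.80 and BC147527 at -2.57. Pmp22 and Pea15a averaged under 100 in the feeder-grown arrays, and A2m, D13Ertd608e and BC147527 in the feeder-free ones. Each passed the filter through the other line type alone and so had to differ.

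Over 20 chromosomes the median difference ran from -0.12 on chromosomes 19, 11 and 1 and -0.11 on chromosome 5 to 0.04 on the X, against -0.08 for all genes. On the X 56 of 155 genes were higher and 44 were lower, 64.5% in all, against 51.7% to 59.9% on the 19 other chromosomes. The Y-linked gene Eif2s3y had signals of 326 to 575 over the arrays of the 4 lines (0.19, adjusted p = 0.152). Its probe set is of a type marked for cross-hybridisation and may share signal with the X-linked gene Eif2s3x, at 4046 to 6364. Uty, also on the Y, was at 80.7 to 132 (-0.04, adjusted p = 0.830). Whether these signals come from the Y copies was not tested. Xist was at 15.3 to 46.7.

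The line difference itself differed between the +/+ and the +/- pair for 46 probe sets (0.626%), 31 with a higher and 15 with a lower value in +/- cells; 1120 were at an unadjusted p under 0.05. The same contrast is the difference between both mutation effects, so it does not say which line sets it. Gm2022 was lower in both pairs, by -3.49 in +/+ and -2.03 in +/- cells. Klf10, a TGF-beta-induced factor, was at -0.45 and 0.98, with signals of 2089, 2475 and 2403 in Cdk4 +/- cells and 818 to 1390 in the other 9 arrays. Txnip, an inhibitor of thioredoxin and of glucose uptake, was likewise highest in Cdk4 +/- cells, at 2042 to 2261 against 643 to 1449 in the other 9. Leaving out 1 array took the count from 46 to between 5 and 93: 6 without Abca1 +/- replicate 2, 16 without replicate 3, 23 without ESVJ replicate 1, 8 without replicate 3, 15 without E14 replicate 1 or 2, 93 without replicate 3, 6 without Cdk4 +/- replicate 1 and 5 without replicate 3.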

How the data were processed

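RNA of 12 ES cell arrays was used; the 4 liver arrays of the series entered only 1 alternative fit. The deposited values are MAS 5.0 signals, a linear intensity per probe set, which the authors made with default settings, per the labels; no detection calls were used. Each array was rescaled to a 2% trimmed mean of 500, and tests ran on log2(signal + 32). A mean signal of at least 100 was required, without the 66 control probe sets. Of 12488 probe sets, 10855 name 1 gene, 396 several and 1237 none in the array's annotation. Means of the 4 lines were fitted together with limma 3.58.1 in R 4.3.3 (intensity trend, 8 residual degrees of freedom), with Benjamini-Hochberg adjustment over all tested probe sets and a threshold of 0.05. The number of arrays limits the precision: the median SE was 0.12, and 0.17 within 1 genotype. The fit was tested on simulated data.

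Named are the genes given with the question (Krt19, Krt18, Hprt, Wnt4), Abca1 and Cdk4, the 15 largest rises and falls that passed in both genotypes without overlap, up to 6 members per list with the smallest p, the 6 largest genotype-dependent differences each way, 4 chromosomes, and the cell type markers. Other genes (for example Cdh1, Epcam, Actb, Actg1, Axin2, Cdkn2c, Cdkn2d, Ctnnb1, Stat3, Dnmt1, Ccnd1, Lefty1, Hmox1, Dsp, Dsc2, Krt20, Gjb5, Lgals3, Cnn2, Vcl, Myl9, Inhba, Xist) were chosen after their values were seen. Members and lists were chosen with earlier results of these data known. Promoters are RefSeq's for GRCm38.p6.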

Additional observations from a re-analysis of the deposited data

Results flagged for a closer look

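The line difference differed by genotype for the 12 genes named here, the 6 largest each way among those that passed the interaction test, each value being the difference in +/- cells minus that in +/+ cells. It was higher in +/- cells for Ddx4, a germ cell RNA helicase gene (1.60), Tbx3, a T-box factor of ES cells (1.48), Txnip (1.46), Gm2022 (1.46), Klf10 (1.43) and Srsf10, a splicing factor gene (1.42). It was lower for Ppan, a ribosome assembly gene (-1.32), Gclm, a subunit of the first enzyme of glutathione synthesis (-1.31), Cd99 (-1.30), the ubiquitin ligase gene Trim25 (-1.21), Epb41l4aos (-1.21) and Socs1, an inhibitor of JAK kinases (-1.20). Srsf10 had probe sets of opposite line difference (-0.76 and 0.42). None of the 12 kept its call under every alternative.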

How the results depend on the processing

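Over the alternatives the line difference was called for 3191 to 4577 probe sets (4123 as reported), in +/+ cells for 2361 to 3267, in +/- cells for 2272 to 3154, in both for 1490 to 2172 and at 2-fold or more for 604 to 1009, each within 1.5 times the reported count. Without 1 array at a time these counts ran from 3684 to 4235, 2531 to 3267, 2286 to 3154, 1681 to 2172 and 802 to 901. The count that differed by genotype was 16 without a filter, 19 without an intensity trend, 1 with all 16 arrays and 5 to 93 without 1 array, and the cause was not tested. Without the 3 arrays of high BioB signal, an alternative chosen after seeing the data, the line difference gave 3993 and the genotype dependence 44. Of 160 named genes called in the line difference, 150 kept the call under every alternative in which they were tested. Among them were all 30 of the largest rises and falls. Those 30 were picked for passing in both genotypes without overlap, so their keeping the call was largely set by the choice. The 10 others were Cd99, Dkk1, Ebp, Fdps, Kdm6a, Klf10, Mvd, Ppan, Slc2a3 and Srsf10, which lost the call somewhere. Of the 150, Hspa4 reversed, to -0.56, with the mean of all its probe sets, which disagree. With a filter of 200 the list medians rose to 2.13 for mesoderm (5 genes), 0.71 for trophoblast, 0.29 for endoderm and 0.31 for fibroblast genes, and fell to -0.21 for LIF. Medians of the neuroectoderm, amino acid, heat shock and sex chromosome lists changed sign between settings. No paired analysis was possible because the labels give no replicate numbers. The replicate numbers used above follow the order of each line's arrays in the series.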
